A study of Mus musculus with 18 samples.

Results

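The genes described here store, translate and remove the mRNAs that an oocyte builds up before it matures. The set held 40 genes, chosen by gene symbol, out of 52550 in the table, and each symbol was found once. All libraries came from C57BL/6 mice, in 6 groups of 3: oocytes, cumulus cells and blastocysts, each from a PM2.5 exposure group and from a filtered air group. PM2.5 is fine airborne particulate matter, cumulus cells are the somatic cells around the oocyte, and the blastocyst is the embryo before implantation. The labels used here give neither the stage of the oocytes, the age of the animals, the dose and length of exposure nor the cells per library. They do not tie libraries to animals or pools, so a p-value here measures the spread between libraries, which may be technical.

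Transcription stops in the full-grown oocyte, and meiosis and the first divisions of the embryo run on stored mRNA. RNA-binding proteins hold this mRNA in granules, a cytoplasmic polyadenylation element in the 3′ untranslated region (UTR) lets chosen mRNAs gain a longer poly(A) tail and enter translation, and adaptor proteins bring the CCR4-NOT deadenylase to mRNAs that are to be cleared. Most of this machinery also works in somatic cells, but several of its proteins have a form made mainly in the germ line.

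Each value is the authors' deposited log2(x + 1), where x is their normalized count. No gene of the set passed the test between PM2.5 and filtered air in any tissue. Between tissues the differences were large. Btg4, Dazl and Zar1 were near 9 to 10 in every oocyte library and at or near 0 in blastocysts, and Pabpc1 and Ybx1 had the opposite order, with their lowest levels in oocytes. The 40 genes together made up 1.41% to 1.55% of all summed x in the oocyte libraries, 0.538% to 0.88% in the cumulus libraries and 0.275% to 0.42% in the blastocyst libraries. These ranges did not overlap between tissues. In samples of many cells, fewer cells of a type and less RNA per cell cannot be told apart.

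**Figure D1:**
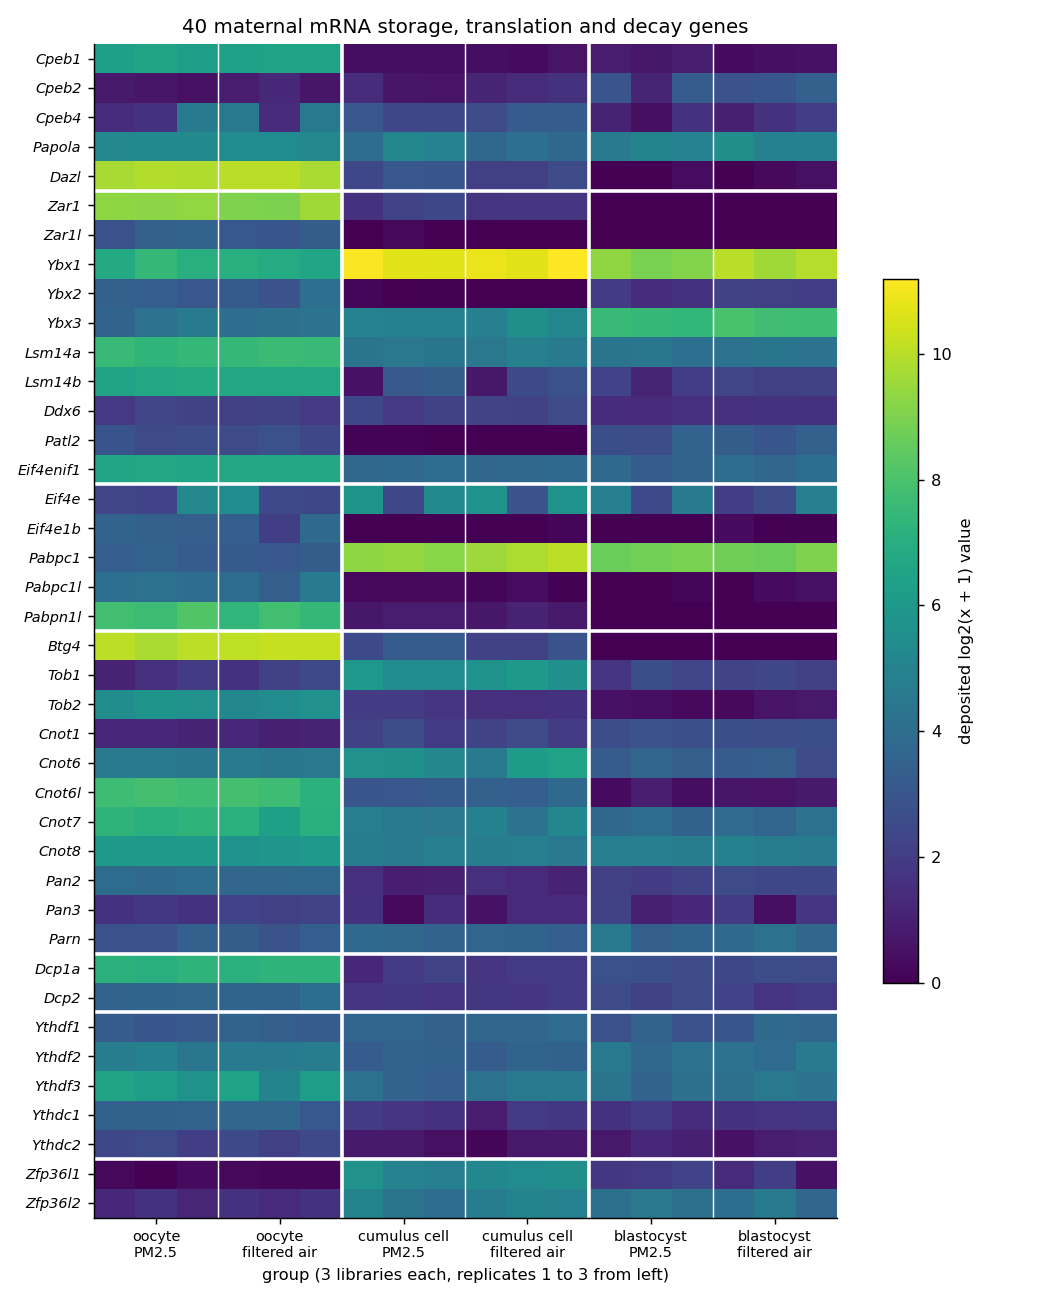
Deposited log2(x + 1) value of the 40 genes (rows, in blocks for polyadenylation, storage, cap and tail binding, deadenylation, decapping, m6A readers and AU-rich element binding) in the 18 libraries (columns, 3 per group). Btg4, Dazl and Zar1 are bright in all 6 oocyte libraries, and Pabpc1 and Ybx1 are bright in all 12 others.

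Btg4, Zar1, Dazl and Cpeb1 were high in oocytes and at or near 0 in blastocysts, so their promoters are shown. Each window runs from 250 bases before to 50 after the start that RefSeq lists on GRCm38.p6, the mm10 build. Capitals mark matches, on either strand, to a TATA box (TATAAA), a GC box (GGGCGG), an E-box of the kind bound by basic helix-loop-helix factors (CAGGTG) and a homeobox core (TAATTG). The windows lie at chr9:51115751-51116050 on the plus strand for Btg4, chr5:72581035-72581334 on the minus strand for Zar1, chr17:50293571-50293870 on the minus strand for Dazl and chr7:81454709-81455008 on the minus strand for Cpeb1.
Btg4: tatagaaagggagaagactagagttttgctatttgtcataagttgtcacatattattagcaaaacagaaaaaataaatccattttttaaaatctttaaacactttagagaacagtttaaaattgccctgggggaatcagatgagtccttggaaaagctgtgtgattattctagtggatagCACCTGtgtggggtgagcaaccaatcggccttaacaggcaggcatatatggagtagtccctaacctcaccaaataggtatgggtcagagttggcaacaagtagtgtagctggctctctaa
Zar1: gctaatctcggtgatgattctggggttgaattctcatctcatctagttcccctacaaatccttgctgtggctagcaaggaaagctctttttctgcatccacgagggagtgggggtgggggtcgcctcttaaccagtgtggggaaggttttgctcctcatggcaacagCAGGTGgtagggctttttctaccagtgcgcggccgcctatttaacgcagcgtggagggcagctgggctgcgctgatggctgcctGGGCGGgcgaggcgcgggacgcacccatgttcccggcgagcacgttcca
Dazl: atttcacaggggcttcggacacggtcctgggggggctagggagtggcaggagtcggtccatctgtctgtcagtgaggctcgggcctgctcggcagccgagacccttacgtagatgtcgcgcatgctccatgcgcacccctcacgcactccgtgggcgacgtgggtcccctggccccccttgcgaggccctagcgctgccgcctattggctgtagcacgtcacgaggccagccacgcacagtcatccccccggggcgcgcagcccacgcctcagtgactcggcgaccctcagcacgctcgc
Cpeb1: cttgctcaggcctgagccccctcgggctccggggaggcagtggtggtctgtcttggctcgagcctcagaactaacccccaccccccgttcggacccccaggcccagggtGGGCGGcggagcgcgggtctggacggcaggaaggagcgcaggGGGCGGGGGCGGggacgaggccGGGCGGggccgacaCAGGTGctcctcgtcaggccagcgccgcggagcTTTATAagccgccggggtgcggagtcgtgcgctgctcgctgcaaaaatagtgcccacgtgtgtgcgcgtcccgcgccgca
The E-box began 70 bases before the start in Btg4, 83 in Zar1 and 63 in Cpeb1. The annotated loci of Btg4 (chr9:51102147-51119924) and Cpeb1 (chr7:81347026-81458001) extend well upstream of the start used. Distances and CpG counts here are for the listed start only. Dazl held none of the motifs, and the promoter of Pabpn1l, which had the same tissue order, held no CAGGTG on either strand. Other forms of the E-box were not searched for. Ybx1, whose level was lower in oocytes than in the other tissues, has a CAGGTG too, 80 bases before its start. Of the 30 genes of the set with a listed promoter, 10 held CAGGTG, or 33.3%, against 20.2% of all 32851 promoters of the table, and 17 held GGGCGG, or 56.7% against 35.7%. TATAAA was found in 10% of the 30 against 13.6%, and TAATTG in 6.67% against 8%. The members' promoters had a median of 27.5 CpG dinucleotides against 7 over all promoters. Btg4 stood apart from that median with 1 CpG, while Zar1 had 17, Dazl 28 and Cpeb1 33. In these shares and medians each member counts once, with the first start listed for it. Over all promoters, a gene with several listed starts counts once for each, so the units are unlike. A match of letters is a description and not a bound site.

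The element that CPEB1 reads is also written in some of the genes that encode the machinery. A search of the last 100 bases of the longest annotated 3′ UTR for the shorter element TTTTAT and the longer one TTTTAAT on the sense strand (GENCODE vM1 transcripts) found one in 10 of 38 genes of the set, or 26.3%, against 17.3% of 18374 genes. The longer element can run into the polyadenylation signal AATAAA. An element with no base in common with AATAAA was found in 8 of the 38, or 21.1%, against 16.4% of all genes. The signal AATAAA itself was in 73.7% of the 38 against 63.2%. Sites of 30 bases are shown for 3 genes of different roles, with the element in capitals.
Btg4: agataaatccctTTTTATgtctttttaaaa
Cnot8: attatttatgtTTTTAATtttgtaaaataa
Ybx2: cctctgaagccaTTTTATgaactgtcatgt
The element began 67 bases before the annotated end in Btg4, the deadenylase adaptor, 38 in Cnot8, a deadenylase, and 62 in Ybx2, the germ cell Y-box protein. Of these 3 genes only Cnot8 had an AATAAA in the 100 bases searched. Poly(A) tail length was not measured in these libraries.

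The labelled tissues were checked against marker genes. All 10 oocyte markers were above 0 in every oocyte library, 14 of 15 cumulus and granulosa markers in all 3 libraries of each cumulus group, and 11 of 12 blastocyst markers in those of each blastocyst group. A level above 0 did not by itself separate tissues. In PM2.5, 10 of the 15 cumulus markers were above 0 in all 3 oocyte libraries (9 in filtered air). In PM2.5 cumulus libraries, 8 of the 12 blastocyst markers were (6 in filtered air). In PM2.5, cumulus markers summed to an x of 1010 to 1240 in cumulus and 7.34 to 8.54 in oocyte libraries. Blastocyst markers summed to 2020 to 2730 in blastocyst and 331 to 415 in cumulus libraries. Oocyte markers were also seen in cumulus libraries. For the 5 markers with a mean x of at least 100 in oocytes, the cumulus level was 0.136% to 1.16% of the oocyte level, with medians per library of 0.418%, 0.781% and 0.656% in PM2.5 and 0.352%, 0.376% and 0.484% in filtered air. Figla and Nobox, transcription factors of the oocyte, were at 0 in all 6 cumulus libraries. Markers of stroma and smooth muscle summed to an x of 5.25 to 6.67 in the PM2.5 cumulus libraries against 3.05 to 3.66 in filtered air. Those of oviduct epithelium summed to 1.55 to 2.83 against 0 to 0.222. The oviduct sum rested mainly on Ovgp1, at log2 values of 1.94, 0.97 and 1.46 against 0, 0.04 and 0.29. Foxj1 and Krt7 of that list were at 0 in the PM2.5 and the filtered air cumulus libraries. Markers of red blood cells ranged from 1.99 to 669 and from 1.93 to 894 in these 2 groups. Leukocyte markers summed to 83.8 to 183 in the PM2.5 and 90.9 to 128 in the filtered air cumulus libraries. Of these, S100a9 was 0, 0 and 1.83 against 2.06, 3.33 and 3.96, and Cd52 was 4.70, 5.77 and 5.85 against 4.96, 4.62 and 4.56. The part of these cells in the exposure results was not tested. None of 15 genes used by every cell was at 0 in any library.

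Tissues were compared in the filtered air libraries with limma, with p-values adjusted over all genes tested, and a gene was tested where its mean log2 value over the 6 libraries was at least 3. Of the 26 genes of the set tested between oocytes and cumulus cells, 16 were higher and 6 lower in oocytes at an adjusted p under 0.05, against 44.7% higher and 42.8% lower over all genes tested. Between oocytes and blastocysts 23 were tested, with 15 higher and 4 lower in oocytes, against 39.5% and 47.6%. Between cumulus cells and blastocysts 17 were tested, with 7 higher and 3 lower in cumulus cells, against 24.9% and 44.5%. The median difference of the genes tested was 1.50, 1.65 and 0.35 in these 3 comparisons, against 0.09, -0.30 and -0.35 over all genes. A bar of 3 leaves out genes that are low in both tissues, so the fit was repeated with a mean of at least 1. All 40 were then tested between oocytes and cumulus cells, with 26 higher and 9 lower in oocytes (37.5% and 48.9% over all genes). Between oocytes and blastocysts 39 were tested, with 24 higher and 8 lower (36.8% and 49.4%). Between cumulus cells and blastocysts 33 were tested, with 13 higher and 8 lower (29.7% and 36.1%). The members that passed either bar are not all 40 in each comparison, and the bar favours genes that are high in at least 1 of the tissues. Btg4 and Pabpn1l, listed at 0 in blastocysts, passed the bar of 3 in that comparison through the oocyte libraries alone. The set was also chosen for a role in the oocyte and holds germ line forms. Its oocyte-high counts and medians thus follow in part from that choice and are no separate result about the set.

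**Figure D2:**
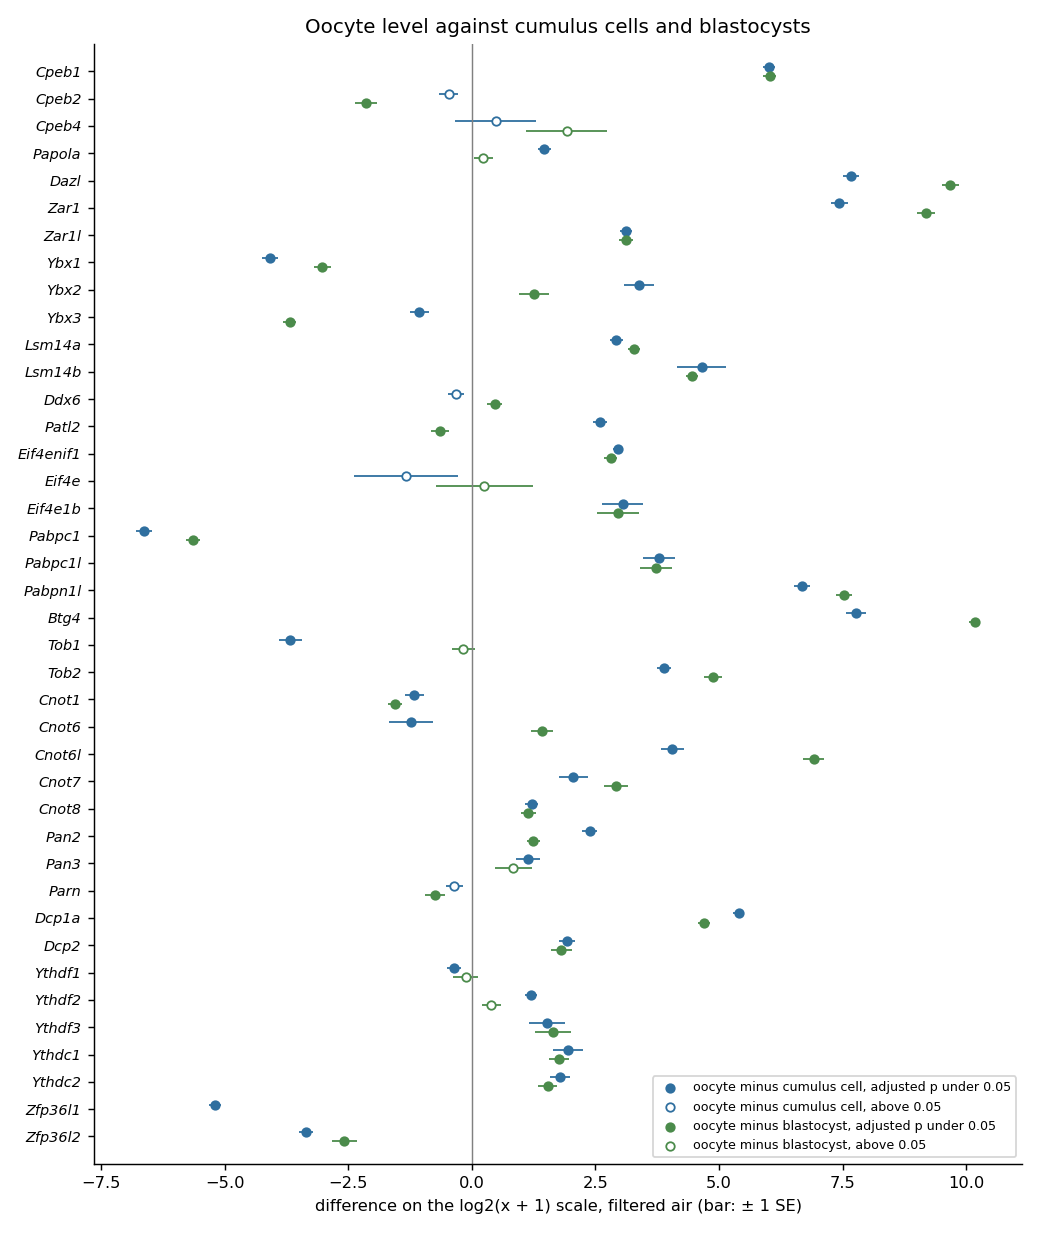
Difference of the oocyte level from that of cumulus cells (blue) and of blastocysts (green) in filtered air, on the log2(x + 1) scale, with bars of 1 SE, for genes with a mean of at least 1. Filled points passed an adjusted p of 0.05. Btg4, Dazl, Zar1 and Pabpn1l lie farthest to the right and Pabpc1 farthest to the left, and for a gene listed at 0 in the other tissue the point is its oocyte level.

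The genes that lengthen poly(A) tails were oocyte-high in part. Cpeb1 encodes the protein that binds the cytoplasmic polyadenylation element. Its level was 6.34, 6.53 and 6.22 in the PM2.5 oocytes and 6.40, 6.51 and 6.48 in the filtered air oocytes. It ranged from 0.32 to 0.61 in the 6 cumulus libraries and 0.34 to 0.90 in the 6 blastocyst libraries, so oocytes stood clear of both. In filtered air the oocyte level was higher by 6.01 than in cumulus cells (SE 0.13, adjusted p = 1.01e-08) and by 6.02 than in blastocysts (SE 0.14, adjusted p = 6.84e-09). Cpeb2, a relative, did not share that order. It was highest in filtered air blastocysts, at 2.88, 2.98 and 3.41, and lower in oocytes, at 0.91, 1.26 and 0.66; with the bar at 1 the oocyte level was lower by 2.14 (SE 0.22, adjusted p = 4.62e-05). Within a filtered air library, Cpeb1 minus Cpeb2 was 5.25 to 5.82 in oocytes and -2.87 to -2.54 in blastocysts.

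Dazl encodes a germ cell RNA-binding protein that promotes translation of maternal mRNAs. Its level was 9.75, 9.91 and 9.85 in PM2.5 oocytes and 10.05, 10.04 and 9.75 in filtered air oocytes. It was 2.11 to 3.05 in cumulus libraries and 0 to 0.52 in blastocyst libraries, with no overlap between tissues. The oocyte level was higher by 7.67 than in cumulus cells (SE 0.16, adjusted p = 8.95e-09) and by 9.68 than in blastocysts (SE 0.17, adjusted p = 3.1e-09), and Dazl ranked 40th of 20261 genes above 0 in filtered air oocytes. Papola, the canonical poly(A) polymerase, differed less between tissues. Its mean was 5.36 in filtered air oocytes, 3.89 in cumulus cells and 5.12 in blastocysts. Cumulus cells were lower than oocytes by 1.47 (SE 0.13, adjusted p = 1.41e-05) and lower than blastocysts by 1.23 (SE 0.20, adjusted p = 0.000532). In the PM2.5 libraries the first difference was 0.60 and missed the threshold (adjusted p = 0.0736; 0.0491 with the replicate number as a block), and the second was 0.15 (adjusted p = 0.69). Oocytes and blastocysts differed by 0.23 in filtered air, which did not pass (SE 0.19, adjusted p = 0.268).

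Storage genes moved in both directions between tissues. Zar1 encodes an RNA-binding protein that stores maternal mRNA in mouse oocytes. Its level was 9.29, 9.25 and 9.40 in PM2.5 oocytes and 9.03, 8.99 and 9.58 in filtered air oocytes. Cumulus libraries ranged from 1.58 to 2.42, and blastocyst libraries from 0 to 0.03. Of the 6 blastocyst libraries 5 were at 0. The oocyte level was higher by 7.43 than in cumulus cells (SE 0.17, adjusted p = 1.08e-08) and by 9.19 than in blastocysts (SE 0.18, adjusted p = 4.12e-09). Zar1l, its close relative, was 3.08, 2.98 and 3.28 in filtered air oocytes and listed at 0 in every blastocyst library and in all cumulus libraries but PM2.5 replicate 2, at 0.25. Both genes thus marked the same tissue, with Zar1 5.95 to 6.30 above Zar1l within a filtered air oocyte library.

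The Y-box proteins coat mRNA, and their genes divided by tissue. Ybx2 (MSY2), the germ cell form, was 3.44, 3.36 and 3.03 in PM2.5 oocytes and 3.19, 2.87 and 4.08 in filtered air oocytes, and 2.10 to 2.15 in filtered air blastocysts. It was listed at 0 in the 3 filtered air cumulus libraries. With the bar at 1 the oocyte level was higher than in blastocysts by 1.26 (SE 0.30, adjusted p = 0.00502). Ybx1, the broadly expressed form, was 10.86, 10.69 and 11.19 in filtered air cumulus cells, 10.02, 9.59 and 9.94 in blastocysts and 6.62 to 7.48 over all 6 oocyte libraries. Its oocyte level was lower than in cumulus cells by 4.08 (SE 0.17, adjusted p = 1.72e-07) and lower than in blastocysts by 3.02 (SE 0.17, adjusted p = 6.59e-07), and the 3 tissues did not overlap. A processed copy, Ybx1-ps2, had a mean of 4.41 in filtered air cumulus cells, 3.33 in blastocysts and 1.43 in oocytes, the same order as Ybx1, and reads of near-identical sequence could have been divided between them. Ybx3 was highest in blastocysts, at 7.98, 7.78 and 7.73, against 4.89 to 5.59 in cumulus cells and 4.02 to 4.27 in oocytes. It was lower in oocytes than in blastocysts by 3.69 (SE 0.13, adjusted p = 5.21e-08).

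Lsm14a and Lsm14b encode proteins of storage granules. Lsm14a had means of 7.54 in filtered air oocytes, 4.62 in cumulus cells and 4.27 in blastocysts, and oocytes were higher by 2.92 (SE 0.13, adjusted p = 2.99e-07) and 3.27 (SE 0.12, adjusted p = 6.37e-08). Lsm14b, needed for meiosis in mouse oocytes, had means of 6.66, 2.02 and 2.21, with oocytes higher by 4.65 (SE 0.49, adjusted p = 4.6e-05) and 4.46 (SE 0.13, adjusted p = 1.73e-08). Eif4enif1 encodes 4E-T, which holds the cap-binding protein away from translation. Its filtered air oocyte libraries read 6.72, 6.72 and 6.71 and exceeded cumulus cells by 2.95 (SE 0.09, adjusted p = 4.55e-08) and blastocysts by 2.81 (SE 0.14, adjusted p = 2.87e-07). Ddx6, the helicase found with these proteins in granules, was low in all 3 tissues, with means of 2.04, 2.36 and 1.58. With the bar at 1 it was lower in blastocysts than in oocytes, by 0.46 (SE 0.15, adjusted p = 0.0208), and than in cumulus cells, by 0.78 (SE 0.18, adjusted p = 0.00633). Patl2, the oocyte form of PAT1, a protein that works with DDX6, was 2.59, 2.78 and 2.41 in filtered air oocytes and listed at 0 in filtered air cumulus cells, but it was higher still in blastocysts, at 3.28, 3.01 and 3.42. With the bar at 1 the oocyte level was lower than in blastocysts by 0.64 (SE 0.18, adjusted p = 0.0096).

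**Figure D3:**
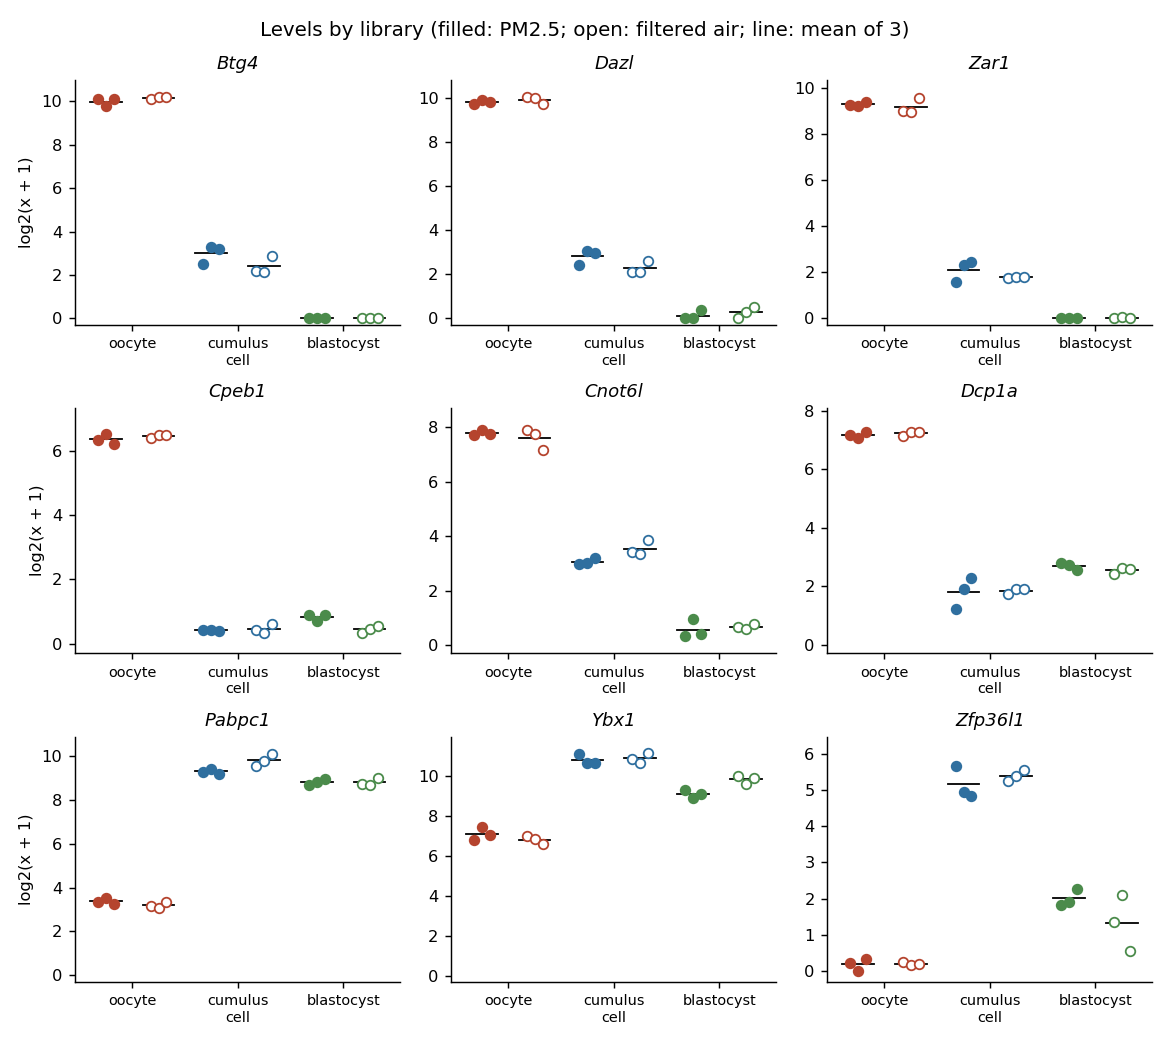
Deposited log2(x + 1) value of 9 genes in each library (filled, PM2.5; open, filtered air; black line, mean of 3). Oocyte libraries are highest for Btg4, Dazl, Zar1, Cpeb1, Cnot6l and Dcp1a and lowest for Pabpc1, Ybx1 and Zfp36l1, with no overlap between oocytes and the other tissues in either exposure group.

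Among the proteins that bind the tail, Pabpc1 and its germ line relative Pabpc1l had opposite orders between tissues. Pabpc1, the general cytoplasmic poly(A)-binding protein, was 3.36, 3.53 and 3.27 in PM2.5 oocytes and 3.18, 3.05 and 3.32 in filtered air oocytes. In filtered air it was 9.54, 9.80 and 10.09 in cumulus cells and 8.75, 8.68 and 9.03 in blastocysts. The oocyte level was lower by 6.63 than in cumulus cells (SE 0.16, adjusted p = 1.24e-08) and by 5.64 than in blastocysts (SE 0.14, adjusted p = 8.92e-09), farther below the other tissue than any other gene of the set tested in filtered air. Pabpc1l (ePAB), its oocyte relative, was 3.95, 3.37 and 4.67 in filtered air oocytes and 0 to 0.49 in all cumulus and blastocyst libraries. Oocytes were higher by 3.79 (SE 0.32, adjusted p = 1.71e-05) and 3.73 (SE 0.33, adjusted p = 1.83e-05) with the bar at 1. Pabpc1l minus Pabpc1 within a filtered air library was above 0 in oocytes (0.32 to 1.35) and far below it in cumulus cells (-10.05 to -9.34) and blastocysts (-8.75 to -8.37).

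Pabpn1l, which in mice works with BTG4 in the decay of maternal mRNA, was 7.78, 7.67 and 8.14 in PM2.5 oocytes and 7.36, 7.79 and 7.44 in filtered air oocytes. It was 0.70 to 1.07 in cumulus libraries and listed at 0 in all 6 blastocyst libraries. The oocyte level was higher than in cumulus cells by 6.68 (SE 0.17, adjusted p = 1.51e-08). Pabpn1, the general nuclear poly(A)-binding protein and no member of the set, was also highest in oocytes, with means of 5.92, 4.92 and 3.43 in filtered air oocytes, cumulus cells and blastocysts, and exceeded blastocysts by 2.49 (SE 0.13, adjusted p = 3.9e-07). Eif4e1b, the oocyte form of the cap-binding protein, was 3.34, 2.08 and 3.88 in filtered air oocytes and 0 to 0.34 elsewhere. Oocytes were higher by 3.05 (SE 0.42, adjusted p = 0.000309) and 2.96 (SE 0.43, adjusted p = 0.000319) with the bar at 1. Eif4e itself did not pass between any 2 tissues, with differences of -1.33 (SE 1.03), 0.25 (SE 0.96) and 1.58 (SE 0.89) for oocytes minus cumulus cells, oocytes minus blastocysts and cumulus cells minus blastocysts. Its libraries were spread far apart within each group, as described further on.

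Btg4, a deadenylation gene, had the highest oocyte level of the set. It encodes the adaptor that brings CCR4-NOT to maternal mRNAs. Its level was 10.10, 9.77 and 10.09 in PM2.5 oocytes and 10.12, 10.20 and 10.19 in filtered air oocytes, and it ranked 34th of 20261 genes in the latter. It was listed at 0 in all 6 blastocyst libraries. In cumulus cells it was 2.51, 3.28 and 3.21 in PM2.5 and 2.17, 2.15 and 2.86 in filtered air, and oocytes were higher by 7.78 (SE 0.20, adjusted p = 1.6e-08). Per library the cumulus level of Btg4 was 0.461%, 0.852% and 0.808% of the PM2.5 oocyte mean and 0.305%, 0.298% and 0.546% of the filtered air mean. Dazl gave 0.474%, 0.797% and 0.755%, and 0.337%, 0.338% and 0.51%. Zar1 gave 0.313%, 0.616% and 0.684%, and 0.39%, 0.409% and 0.408%. Means of Cpeb1 and Pabpn1l were 0.412% and 0.334% in PM2.5 and 0.427% and 0.441% in filtered air. All of these lay in the range of 0.136% to 1.16% of the oocyte markers given above.

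Cnot6l and Cnot6 encode related catalytic subunits of CCR4-NOT. Cnot6l was 7.89, 7.74 and 7.14 in filtered air oocytes, 3.42, 3.35 and 3.84 in cumulus cells and 0.65, 0.60 and 0.79 in blastocysts. Oocytes were higher by 4.05 (SE 0.22, adjusted p = 9.06e-07) and 6.91 (SE 0.21, adjusted p = 2.27e-08). Cumulus Cnot6l was 3.18% to 6.78% of the oocyte level, above the range of the oocyte markers. Cnot6 was 4.61, 4.39 and 4.49 in filtered air oocytes, 4.59, 6.17 and 6.43 in cumulus cells and 3.27, 3.39 and 2.58 in blastocysts. The oocyte level was lower than in cumulus cells by 1.23 (SE 0.44, adjusted p = 0.0301), but 1 cumulus library lay inside the oocyte range and the call was lost when any filtered air library but cumulus replicate 1 was left out (adjusted p = 0.0533 to 0.0994). Against blastocysts the oocyte level of Cnot6 was higher by 1.42 (SE 0.23, adjusted p = 0.000511), the direction of Cnot6l. Within a filtered air library, Cnot6l exceeded Cnot6 in oocytes (2.65 to 3.35) and lay under it in cumulus cells (-2.82 to -1.18) and blastocysts (-2.79 to -1.79).

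Cnot7 and Cnot8 encode the other pair of catalytic subunits, to which BTG4 binds. Cnot7 had means of 6.85, 4.80 and 3.93 in filtered air oocytes, cumulus cells and blastocysts, and oocytes were higher by 2.06 (SE 0.29, adjusted p = 0.000281) and 2.92 (SE 0.24, adjusted p = 6.33e-06). Cumulus cells exceeded blastocysts by 0.87 (SE 0.26, adjusted p = 0.0153), a call lost without cumulus replicate 3 (0.65, adjusted p = 0.0553) or without blastocyst replicate 2 (0.73, adjusted p = 0.0548). Cnot8 had means of 5.88, 4.67 and 4.74, with oocytes higher by 1.21 (SE 0.14, adjusted p = 6.68e-05) and 1.14 (SE 0.15, adjusted p = 0.000139). Cnot1, the scaffold of the complex, went the other way at a low level, with means of 1.12, 2.28 and 2.68. With the bar at 1 oocytes were lower by 1.16 (SE 0.19, adjusted p = 0.000846) and 1.56 (SE 0.15, adjusted p = 2.44e-05).

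Tob1 and Tob2 encode adaptors of the same family as BTG4, and against cumulus cells they went opposite ways. Tob2 was 5.23, 5.38 and 5.67 in filtered air oocytes against 1.51, 1.50 and 1.62 in cumulus cells and 0.30, 0.59 and 0.75 in blastocysts. Oocytes were higher than cumulus cells by 3.88 (SE 0.15, adjusted p = 1.39e-07) and, with the bar at 1, than blastocysts by 4.87 (SE 0.19, adjusted p = 2.48e-07). Tob1 was 5.69, 5.99 and 5.62 in cumulus cells, 1.62, 2.21 and 2.46 in oocytes and 2.28, 2.40 and 2.12 in blastocysts. The oocyte level was lower than in cumulus cells by 3.67 (SE 0.23, adjusted p = 2.02e-06), while oocytes and blastocysts overlapped. Pan2, the catalytic subunit of the PAN deadenylase, had means of 3.71, 1.33 and 2.47, and oocytes exceeded blastocysts by 1.24 (SE 0.14, adjusted p = 5.9e-05) and, with the bar at 1, cumulus cells by 2.38 (SE 0.14, adjusted p = 3e-06). Pan3, its adaptor, had means of 2.23, 1.10 and 1.40, and with the bar at 1 oocytes exceeded cumulus cells by 1.13 (SE 0.24, adjusted p = 0.00294) and did not pass against blastocysts (0.83, SE 0.38, adjusted p = 0.0698). Parn, another deadenylase, had means of 3.17, 3.53 and 3.92. It was lower in oocytes than in blastocysts by 0.74 (SE 0.21, adjusted p = 0.0105), a call that went with the scaling: after quantile normalization or median centring the fall was 0.33 (adjusted p = 0.175) or 0.38 (adjusted p = 0.123).

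Both decapping genes were oocyte-high. Dcp1a, the activator, was 7.19, 7.06 and 7.29 in PM2.5 oocytes and 7.14, 7.29 and 7.27 in filtered air oocytes, 1.23 to 2.29 in cumulus libraries and 2.41 to 2.79 in blastocyst libraries. Oocytes were higher by 5.40 than cumulus cells (SE 0.11, adjusted p = 8.8e-09) and by 4.70 than blastocysts (SE 0.13, adjusted p = 1.28e-08). Dcp2, the catalytic enzyme, was lower in level and differed less, with means of 3.76, 1.85 and 1.96. Oocytes were higher by 1.92 (SE 0.16, adjusted p = 1.67e-05) and 1.81 (SE 0.21, adjusted p = 8.26e-05) with the bar at 1.

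YTH proteins read N6-methyladenosine (m6A), and their genes differed from tissue to tissue by less. Ythdf3 was 6.49, 5.04 and 6.26 in filtered air oocytes, against 4.15 to 4.55 (cumulus cells) and 4.14 to 4.47 (blastocysts), with oocytes higher by 1.52 (SE 0.36, adjusted p = 0.00465) and 1.65 (SE 0.35, adjusted p = 0.00248). Ythdf2, which in mice is needed to set maternal transcript levels during oocyte maturation, had means of 4.65, 3.46 and 4.26. Oocytes exceeded cumulus cells by 1.19 (SE 0.14, adjusted p = 7.58e-05) and did not pass against blastocysts (0.39, SE 0.19, adjusted p = 0.0886). Ythdf1 had means of 3.40, 3.76 and 3.53 and passed in none of the 3 comparisons with the bar at 3; with the bar at 1 the oocyte level was lower than in cumulus cells by 0.36 (adjusted p = 0.0451). Ythdc1, the nuclear reader, had means of 3.48, 1.54 and 1.72, and Ythdc2, a helicase needed for meiosis, 2.36, 0.57 and 0.83. With the bar at 1 oocytes exceeded cumulus cells by 1.94 (SE 0.31, adjusted p = 0.000677) for Ythdc1 and by 1.78 (SE 0.20, adjusted p = 8.98e-05) for Ythdc2. Against blastocysts these were 1.77 (SE 0.20, adjusted p = 8.15e-05) and 1.53 (SE 0.19, adjusted p = 0.000143).

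Zfp36l1 and Zfp36l2 bind AU-rich elements and recruit deadenylases, and both were low in oocytes. Zfp36l1 was 5.24, 5.38 and 5.55 in filtered air cumulus cells, 1.34, 2.09 and 0.54 in blastocysts and 0.25, 0.15 and 0.19 in oocytes. Cumulus cells exceeded blastocysts by 4.06 (SE 0.35, adjusted p = 9.48e-06), and with the bar at 1 oocytes were lower than cumulus cells by 5.19 (SE 0.13, adjusted p = 6.55e-08). Zfp36l2, which mouse oocytes need in order to mature, was 4.71, 5.02 and 4.95 in cumulus cells, 4.06, 4.63 and 3.68 in blastocysts and 1.62, 1.37 and 1.64 in oocytes. Oocytes were lower than cumulus cells by 3.35 (SE 0.15, adjusted p = 2.8e-07). Its difference of 0.77 between cumulus cells and blastocysts (SE 0.24, adjusted p = 0.0183) did not pass in the PM2.5 libraries (0.21, adjusted p = 0.476), without cumulus replicate 2 (0.70, adjusted p = 0.0528) or without blastocyst replicate 3 (0.54, adjusted p = 0.0563).

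The same tissue comparisons in the PM2.5 libraries rest on other samples but on the same choice of genes. Between oocytes and cumulus cells 24 genes of the set were tested, with 15 higher and 7 lower in oocytes (44.4% and 43.9% over all genes). Between oocytes and blastocysts 25 were tested, with 19 higher and 4 lower (39.6% and 48.6%), and between cumulus cells and blastocysts 17, with 6 higher and 2 lower in cumulus cells (26.3% and 39.9%). Btg4 exceeded cumulus cells by 6.99 there (SE 0.22, adjusted p = 3.1e-09), Dazl by 7.02 (SE 0.18, adjusted p = 1.53e-09) and Zar1 by 7.21 (SE 0.22, adjusted p = 2.73e-09). Pabpc1 was lower in PM2.5 oocytes than in cumulus cells by 5.92 (SE 0.13, adjusted p = 1.16e-09). No difference of a gene named above changed its direction in the PM2.5 libraries among those that had passed in filtered air with the bar at 3.

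A few genes of the set read at separate levels within a group. Eif4e, the cap-binding protein, was 2.32, 2.26 and 5.29 in PM2.5 oocytes, 5.41, 2.49 and 2.45 in filtered air oocytes, 5.78, 2.36 and 5.33 in PM2.5 cumulus cells and 5.71, 2.85 and 5.77 in filtered air cumulus cells. In blastocysts it was 4.85, 2.53 and 4.56 in PM2.5 and 2.08, 2.60 and 4.89 in filtered air. Each library thus read either 2.08 to 2.85 or 4.56 to 5.78, and both ranges occurred in every group. Of 52550 genes, Eif4e was the only one with a mean of at least 1 and a range over 2 in all 6 groups, and per group 1.23% to 2.42% of genes with such a mean were that wide. Cpeb4, a relative of Cpeb1, was 1.47, 1.63 and 4.58 in PM2.5 oocytes and 4.54, 1.42 and 4.52 in filtered air oocytes. Lsm14b was 0.56, 3.12 and 3.30 in PM2.5 cumulus cells and 0.74, 2.52 and 2.79 in filtered air cumulus cells, but 6.54 to 6.84 in all 6 oocyte libraries. Replicate 2 was at the low level of Eif4e in all 6 groups and of Cpeb4 in both oocyte groups, while replicates 1 and 3 were high or low from group to group. Both genes were high in PM2.5 replicate 3 and filtered air replicate 1 of oocytes, and Cpeb4 also in filtered air replicate 3, where Eif4e was low. Cpeb2 ranged over more than 2 in PM2.5 blastocysts, at 2.95, 1.17 and 3.22. The cause was not tested. SEs of the exposure difference were 1.04, 1.05 and 0.75 for Eif4e in oocytes, cumulus cells and blastocysts and 1.07 for Cpeb4 in oocytes. Cpeb4 read more evenly in filtered air cumulus cells, at 2.56, 3.24 and 3.24, and with the bar at 1 exceeded blastocysts there by 1.44 (SE 0.32, adjusted p = 0.00515).

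**Figure D4:**
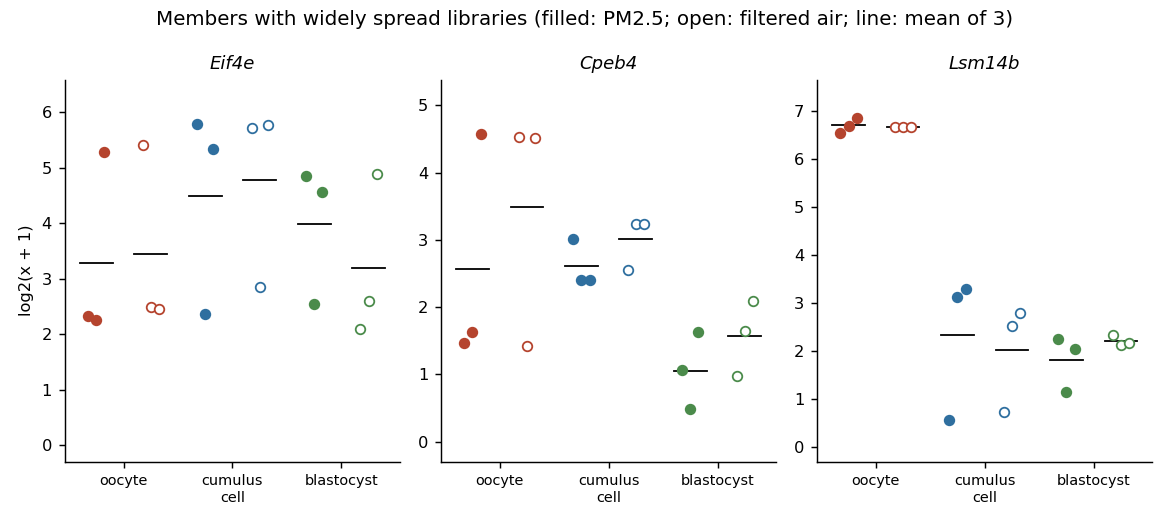
Deposited log2(x + 1) values of Eif4e, Cpeb4 and Lsm14b in each library (filled, PM2.5; open, filtered air; black line, mean of 3). Eif4e reads near 2 or near 5 in every group, Cpeb4 does so in oocytes, and Lsm14b has 1 low library in each cumulus group.

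Exposure was compared within each tissue, PM2.5 minus filtered air, with the same bar of 3. In oocytes 31 genes of the set were tested with limma and none passed, against 0.221% of all genes tested. At an unadjusted p under 0.05 there were also none, against 8.33% of all genes. In 3 of the 31 the groups did not overlap, or 9.68% against 15.3% of all genes. Btg4 was lower in PM2.5 by 0.18 (SE 0.11, adjusted p = 0.697), with PM2.5 replicate 2 at 9.77 and the other 5 oocyte libraries between 10.09 and 10.20. Eif4enif1 was lower by 0.08 (SE 0.08, adjusted p = 0.804), and Pan2 was higher, at 3.95, 3.88 and 3.99 against 3.69, 3.71 and 3.74, a difference of 0.23 (SE 0.11, adjusted p = 0.631). The smallest p belonged to Pabpn1l, with a difference of 0.33 (SE 0.16, adjusted p = 0.626), and the third smallest to Ythdf1, with -0.28 (SE 0.16, adjusted p = 0.654). Zar1 and Dazl differed by 0.11 (SE 0.16) and -0.11 (SE 0.11), and Cpeb1 by -0.10 (SE 0.11). Differences were above 0 for 17 genes and below 0 for 14, with a median of 0.02 against -0.04 over all genes. Not tested in oocytes were Cpeb2, Cnot1, Tob1, Ddx6, Ythdc2, Patl2, Zfp36l1, Zfp36l2 and Pan3, which had means under 3. Of these Pan3 did not overlap between groups, with means of 1.69 in PM2.5 and 2.23 in filtered air. Non-overlap was not counted over all untested genes in any tissue, so an untested gene without overlap has no background share.

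In cumulus cells 18 genes of the set were tested and none passed, against 0.167% of all genes. An unadjusted p under 0.05 was reached by 4 of the 18, or 22.2%, against 23.3% of all genes. The groups did not overlap for 4, or 22.2%, against 26.3%: Pabpc1, Cnot6l, Lsm14a and Ythdf1, all lower in PM2.5. Lsm14a differed by -0.27 (SE 0.15, adjusted p = 0.281) and Ythdf1 by -0.17 (SE 0.14, adjusted p = 0.461). Pabpc1 was 9.30, 9.42 and 9.21 in PM2.5 and 9.54, 9.80 and 10.09 in filtered air, a difference of -0.50 (SE 0.16, adjusted p = 0.185). Cnot6l was 2.99, 3.03 and 3.18 against 3.42, 3.35 and 3.84, a difference of -0.47 (SE 0.18, adjusted p = 0.19). Papola and Ythdf3 were split within PM2.5. Papola was 3.97, 5.19 and 4.98 in PM2.5 against 3.78, 4.08 and 3.80, a difference of 0.82 (SE 0.31, adjusted p = 0.19), and Ythdf3 was 4.24, 3.53 and 3.33 against 4.15, 4.52 and 4.55, a difference of -0.71 (SE 0.25, adjusted p = 0.186). In both genes PM2.5 replicate 1 lay by the filtered air libraries and replicates 2 and 3 lay apart.

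That library decided the count in cumulus cells. Without PM2.5 replicate 1, 558 genes of the table passed in place of 8 (11.8% of those tested), and 3 of 18 of the set, or 16.7%: Papola rose by 1.20 (adjusted p = 0.0318), Ythdf3 fell by 0.98 (adjusted p = 0.041) and Zfp36l2 fell by 0.72 (adjusted p = 0.0452). With library quality weights 2236 genes passed (46.8% of those tested), and 8 of 18 of the set, or 44.4%: Papola was higher, and Pabpc1, Ythdf3, Zfp36l1, Zfp36l2, Ybx3, Tob1 and Lsm14a were lower (adjusted p = 0.00543 to 0.0327). These shares of the set are close to those of the whole table. The summed markers of stroma and of oviduct given above did not overlap between the cumulus exposure groups, while those of oocytes and of leukocytes did. Ovgp1, the main oviduct marker, was highest in PM2.5 replicate 1, at 1.94. Whether these levels bear on the calls was not tested. With all 6 libraries, 4 of the 18 differences were above 0 and 14 below, with a median of -0.23 against 0.09 over all genes. Levels of Btg4, Dazl and Zar1 in cumulus cells were not tested between exposure groups, as their means were under 3. Among untested genes, for which no background share was counted, Tob2 did not overlap, with means of 1.90 in PM2.5 and 1.54 in filtered air. Of the mRNAs known to be recruited for translation in maturing oocytes, 7 could be tested in cumulus cells: all 7 read higher in PM2.5, with a median difference of 0.40, and none passed, while 58.7% of all genes tested read higher. The 7 include Gdf9 (means 3.88 and 3.43) and Oosp1 (3.89 and 3.33), which are also oocyte markers. The oocyte markers stood at a larger median share of their oocyte level in PM2.5 replicates 2 and 3 than in any filtered air cumulus library. In PM2.5 replicate 1 that share was 0.418%, within the filtered air range of 0.352% to 0.484%. A link between these shares and the 7 genes was not tested.

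In blastocysts 16 genes of the set were tested and none passed, as for all genes, of which 0% were called. An unadjusted p under 0.05 was reached by 2 of the 16, or 12.5%, against 3.95% of all genes, and the groups did not overlap for the same 2, against 8.52% of all genes. Both were Y-box genes. Ybx1 was 9.32, 8.93 and 9.13 in PM2.5 and 10.02, 9.59 and 9.94 in filtered air, a difference of -0.73 (SE 0.17, adjusted p = 0.831). Its copy Ybx1-ps2 was 3.27, 2.77 and 2.97 against 3.36, 3.28 and 3.34, also lower in every PM2.5 library. Ybx3 was 7.53, 7.44 and 7.40 against 7.98, 7.78 and 7.73, a difference of -0.37 (SE 0.13, adjusted p = 0.998). The third smallest p belonged to Eif4enif1, with -0.36 (SE 0.22, adjusted p = 0.998). Untested genes without overlap were Cpeb1, with means of 0.83 in PM2.5 and 0.44 in filtered air, Ybx2, with 1.68 and 2.11, and Pan2, with 2.11 and 2.47. These levels are low, for Cpeb1 near 0, and no background share was counted for untested genes. Pabpc1, the other abundant gene, had means of 8.82 in both groups. The 40 genes made up 0.275% to 0.322% of all summed x in PM2.5 blastocysts and 0.337% to 0.42% in filtered air blastocysts. In oocytes this share was 1.41% to 1.46% against 1.49% to 1.55%, also without overlap, and in cumulus cells 0.538% to 0.788% against 0.689% to 0.88%, with overlap. A summed share follows its most abundant genes, in blastocysts above all Ybx1, and does not describe the set gene by gene. How often the shares of other sets of genes do not overlap was not counted. Among the genes of the set tested in blastocysts, differences were above 0 for 4 and below 0 for 12, with a median of -0.16 against -0.01 over all genes.

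**Figure D5:**
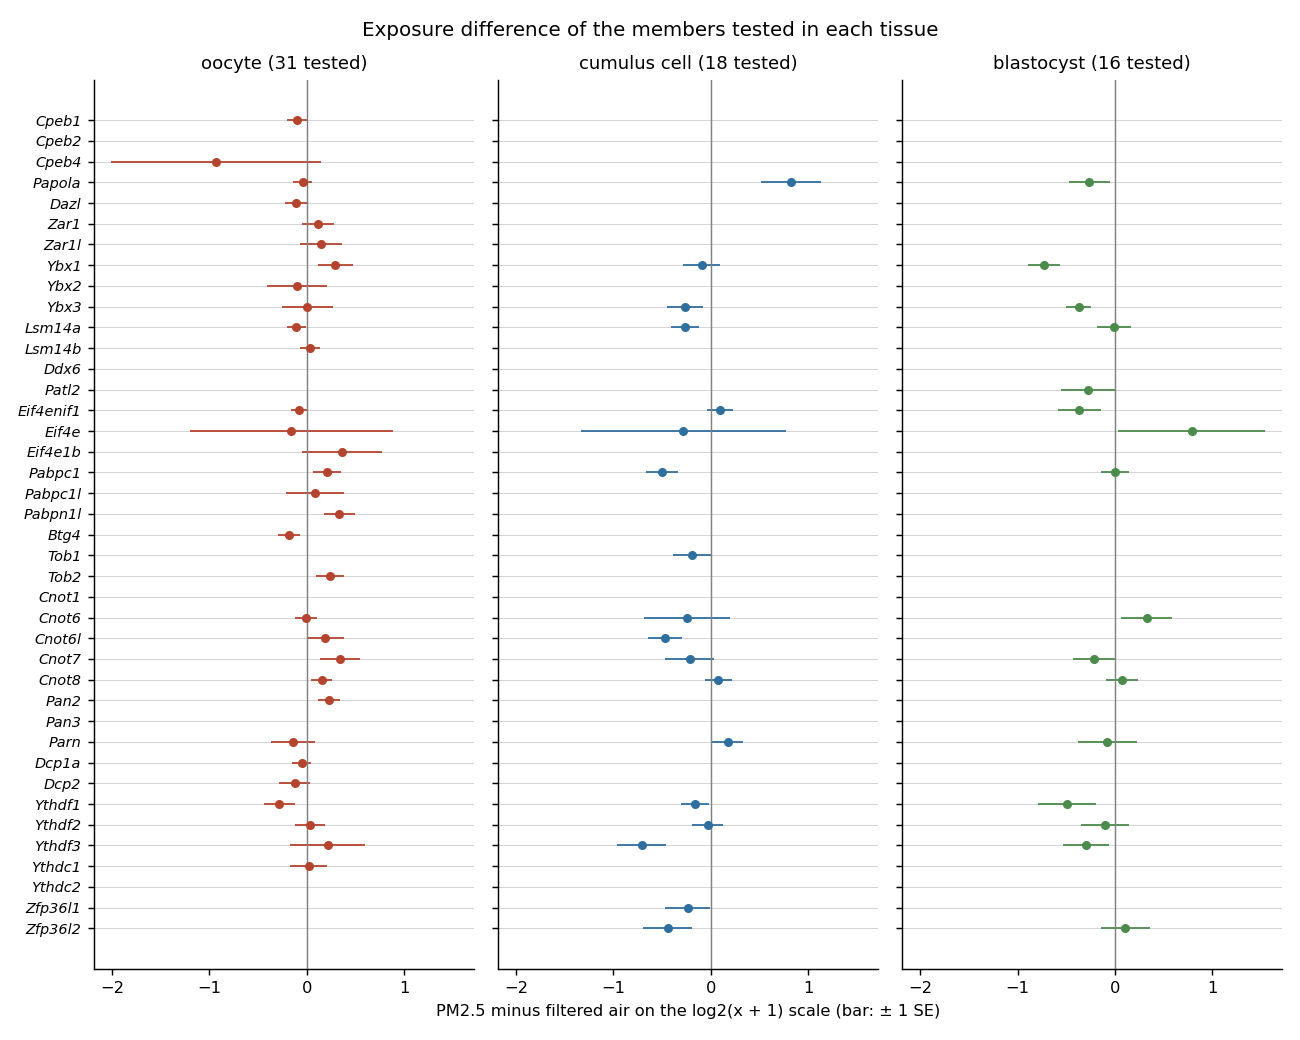
PM2.5 minus filtered air on the log2(x + 1) scale with bars of 1 SE, for the genes of the set tested in oocytes (31), cumulus cells (18) and blastocysts (16); genes with no point in a tissue were not tested there. Most points lie within 0.5 of 0, and Papola and Ythdf3 in cumulus cells and Ybx1 in blastocysts lie farther out among the genes with short bars.

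Whether exposure differences differed between tissues was tested in 1 fit of all 18 libraries. For oocytes against cumulus cells 15 genes of the set were tested and none passed, against 0.395% of all genes. An unadjusted p under 0.05 was reached by 3, against 15.2% of all genes: Pabpc1, with exposure differences of 0.20 and -0.50 (difference 0.71, SE 0.20, adjusted p = 0.133), Papola (-0.86, adjusted p = 0.235) and Cnot6l (0.66, adjusted p = 0.273). For oocytes against blastocysts none of 14 passed, against 0% of all genes, and 1 had an unadjusted p under 0.05, against 6.62%. It was Ybx1, with 0.29 in oocytes and -0.73 in blastocysts (difference 1.02, SE 0.28, adjusted p = 0.273). For cumulus cells against blastocysts none of 15 passed, against 0.259% of all genes, and 4 had an unadjusted p under 0.05, against 17%: Papola (1.09, adjusted p = 0.209), Pabpc1 (-0.50, adjusted p = 0.245), Ybx1 (0.63, adjusted p = 0.265) and Eif4enif1 (0.46, adjusted p = 0.27). These 3 comparisons share libraries with those above.

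Other genes of the pathway were described from 8 lists. Between PM2.5 and filtered air none of their genes passed in any tissue. Over all genes tested in filtered air, 44.7% were higher and 42.8% lower in oocytes than in cumulus cells, and 39.5% and 47.6% against blastocysts, the background for the counts that follow. Of the mRNAs known to be recruited for translation in maturing oocytes, 12 of 12 tested were higher in filtered air oocytes than in cumulus cells, among them Mos (7.65), Wee2 (7.17), Gdf9 (7.66) and Oosp1 (7.86). Against blastocysts 12 of 13 were higher and 1 was lower. These mRNAs were listed because they are known from oocytes, and Gdf9, Oosp1 and Nobox are also among the oocyte markers. Both counts thus follow from the choice of the list and are no result about it. Other cap-binding and eIF4F genes were divided, with 5 higher and 6 lower of 15 in oocytes against cumulus cells and 4 higher and 9 lower of 14 against blastocysts. Eif4e3, a cap-binding relative of Eif4e, was higher in oocytes by 5.42 and 7.57, and Eif4ebp1, which restrains EIF4E, was lower by 6.34 and 5.88. Other deadenylase genes had 4 higher and 3 lower of 8 in both comparisons, with Cnot11 higher by 3.24 and 3.02 and Angel2 higher by 3.50 and 4.96. Decapping and 5′ decay genes had 4 higher and 4 lower of 11 against cumulus cells and of 12 against blastocysts, with Edc4 higher by 2.17 and 2.37 and Pnrc2 lower by 4.26 and 2.93. Genes of 3′ end processing and terminal uridylation had 5 higher and 4 lower of 10, and 5 higher and 2 lower of 9, with Nudt21 lower by 3.57 and 3.47. Writers and erasers of m6A had 4 higher of 4 and 2 higher and 1 lower of 3, with Alkbh5, the eraser, higher by 1.63 and 2.90. Other RNA-binding and granule genes had 11 higher and 5 lower of 19, and 8 higher and 4 lower of 16, with Elavl2 higher by 5.48 and 6.09. Exosome and SKI genes had 2 higher and 1 lower of 4, and 2 higher and 3 lower of 6.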

How the data were processed

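RNA sequencing values of 18 libraries were analysed. Per the labels' protocols, lysed cells went straight into reverse transcription, and the tailed cDNA was amplified and sequenced from both ends. The authors deposited 1 table of log2 values, log2(x + 1) of a normalized count x, for 52550 genes. FastQC, Cuffnorm and DESeq 1.22.1 are named with the mm10 build, per the submitters' processing notes, with no order or role. No label or header names the aligner or the annotation. The deposited x fell with transcript length (slope of log10 x on log10 length -0.825, SE 0.042, over 2298 genes with 1 transcript that were above 0 in 18 libraries; -0.458, SE 0.086, over 622 genes above 0 in 1), so genes are compared per length only in part. Read depth is unknown, and no count model was run. A difference of log2(x + 1) understates the change of low genes.

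Groups came from the labels. Comparisons used limma 3.58.1 in R 4.3.3 (lmFit, eBayes with a trend), two-sided, adjusted by Benjamini-Hochberg over all genes with a mean log2 value of at least 3 and at least 3 libraries above 0, with a threshold of 0.05. All members are accounted for; exposure values are given for those with an unadjusted p under 0.05, the 3 smallest p, and groups that did not overlap, and up to 4 called genes per pathway list. Same-numbered libraries deviated together weakly in PM2.5 oocytes and PM2.5 cumulus cells (correlations of deviations 0.13, 0.128 and 0.175), and in no main comparison did all 3 pairs exceed 0.1. Libraries of unlike number were not compared, so these values cannot show that the numbers pair the libraries. The members, lists and tests were chosen with earlier results of these data known. Promoters were matched by symbol in RefSeq (30 of 40), and 3′ UTRs in GENCODE vM1 (38 of 40). Alternatives were other filters, pseudocounts, scalings, weights, a replicate block, 1 fit of 18 libraries and leaving out each library.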

Additional observations from a re-analysis of the deposited data

How the results depend on the processing

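No direction of a called value was reversed under any alternative. Of the alternative values of single genes, 1142 kept their direction and side of the threshold, 13 gained and 18 lost a call. Lost calls not given above were Cnot6 in oocytes against cumulus cells with no filter (adjusted p = 0.0771), and in cumulus cells against blastocysts Cnot7 with no filter (0.0617) and with quality weights (0.52, adjusted p = 0.144) and Zfp36l2 with no filter (0.0657). Across the settings run, the members called between PM2.5 and filtered air stayed at 0 in oocytes and blastocysts; in cumulus cells they were 8 with library quality weights and 0 to 3 when 1 library was left out. With quality weights they were 2 for oocytes against cumulus cells and 3 for cumulus cells against blastocysts in the tests of the difference (0 to 1 in each when 1 library was left out).

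Among all genes, the count called in oocytes (9) became 17 with a mean of at least 1, 5 with no filter, 20 with quality weights and 27 in 1 fit of 18 libraries (2 to 12 when 1 library was left out). In cumulus cells (8) it became 5 with no filter, 2236 with quality weights and 103 in 1 fit (6 to 558). In blastocysts (0, with 191 at an unadjusted p under 0.05 in limma) it became 2 with a mean of at least 1, 1 with no filter and 2 in 1 fit (0 to 4). Between tissues in filtered air, a mean of at least 1 and no filter test more genes. They gave 9275 and 13523 for oocytes against cumulus cells (3502), with 35 members (22) at a mean of at least 1. For oocytes against blastocysts (3521) they gave 9138 and 12943, with 32 members (19) in both. For cumulus cells against blastocysts (3104) they gave 7018 and 9073, with 21 members (10) in both. For the difference of oocytes and cumulus cells (8) the count was 15 with a mean of at least 1, 48 with no filter, 2 with quantile normalization, 3 with median centring and 336 with quality weights (1 to 70). For oocytes and blastocysts (0, with 136 at an unadjusted p under 0.05 in limma) it was 2, 10, 2, 3 and 11 (0 to 7). For cumulus cells and blastocysts (9) it was 14 with a mean of at least 1, 40 with no filter, 29 on log2(x + 10) and 721 with quality weights (4 to 90). The causes were not tested.

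With the replicate number as a block, 3 genes were called in oocytes, 3 in cumulus cells and 0 in blastocysts, and 1 for the difference of oocytes and cumulus cells. Members called stayed at 22, 19 and 10 between tissues and at 0 between exposure groups. In the PM2.5 libraries of oocytes and cumulus cells, where same-numbered libraries deviated together weakly, the block gave 23 members in place of 22. That fit was chosen after seeing the data, and the labels do not say whether the numbers pair the libraries. Depth is unknown, so values near 0 carry no detection limit.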
